A study of Mus musculus with 4 samples.

Results

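MHC class II molecules show peptides to CD4+ T cells, and the 10 genes described here make these molecules, load them and switch them on. They are *H2-Aa*, *H2-Ab1* and *H2-Eb1*, *Cd74*, *H2-DMa*, *H2-DMb1*, *H2-DMb2*, *H2-Oa*, *H2-Ob* and *Ciita*, and they were chosen by symbol from the 30905 genes of 1 count matrix of mouse heart grafts. All 10 were found, and all 10 had at least 100 UMIs (unique molecular identifiers, each counting 1 captured transcript) in the cells used.

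The study transplanted hearts into the abdomen of C57BL/6J recipients and took the grafts out on day 5. The allogeneic group was 2 grafts from Balb/C donors and the syngeneic group 2 grafts from C57BL/6J donors, with male animals of 8 to 10 weeks and no treatment or gene deletion named. The grafts were dissociated as whole tissue, so a profile can come from donor cells, recipient cells or both. The barcodes end in a suffix from 1 to 4, and since no source used here pairs a suffix with a graft, the cells are called libraries 1 to 4, allogeneic and syngeneic grafts were not compared, and no value has replicates or a test.

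Of 53824 barcodes, 44626 passed the filters and 42395 were used after doublets were marked, with library medians of 4578 to 11914 UMIs. Clusters were formed without the members, the other H2 genes and a list of 14 interferon gamma targets, and were named from marker genes, which gave 12 cell classes, each called "-like" for that reason, and left 7330 cells unnamed. In all, 616 barcodes shared their sequence with a barcode of another suffix. Many clusters came almost wholly from 1 library, so a difference between such clusters is also a difference between libraries. Library 4 held 5744 of the 8283 macrophage-like and 1408 of the 1865 T/NK-like cells, but only 630 of the 12373 endothelial-like and 329 of the 5572 fibroblast-like cells.

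As background, the α and β chains of H2-A and H2-E are built in the endoplasmic reticulum around the invariant chain, *Cd74*, which is later cut away in the endosome by proteases such as cathepsin S. H2-DM then exchanges the remaining fragment for peptide, and H2-O restrains H2-DM. CIITA does not bind DNA itself but docks on the RFX, CREB and NF-Y factors that sit on the X and Y boxes of class II promoters. Dendritic cells, macrophages and B cells carry class II, while most stromal cells need interferon gamma to make it.

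In the mm10 (GRCm38) annotation, 8 of the genes lie within 224 kb of chromosome 17, from base 34092340 to base 34316674, inside the MHC. *Ciita* lies on chromosome 16 from base 10480059 to base 10528418 on the + strand. RefSeq promoters (GRCm38.p6, 250 bases before to 50 after the start) were at hand for 7 members: *H2-Aa*, *H2-Eb1*, *H2-DMa*, *H2-DMb1*, *H2-DMb2*, *H2-Oa* and *H2-Ob*. None was matched for *H2-Ab1*, *Cd74* and *Ciita*.

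The stretches from 140 to 31 bases before the RefSeq start are shown for the 6 members that hold GATTGG there. *H2-Aa* and *H2-Oa* hold it without the longer motif described next. Each is given 5′ to 3′ on the strand of its gene. Capitals mark GATTGG, the core of the Y box, and AACNNATGATG, the letters that the stretch ending in TGATG before it had in common in *H2-Eb1*, *H2-DMb1*, *H2-DMb2* and *H2-Ob*, where the X box lies.
*H2-Eb1*, chr17:34305727-34305836, + strand: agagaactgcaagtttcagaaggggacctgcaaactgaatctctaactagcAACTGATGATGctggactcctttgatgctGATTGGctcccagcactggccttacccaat
*H2-DMb1*, chr17:34153051-34153160, + strand: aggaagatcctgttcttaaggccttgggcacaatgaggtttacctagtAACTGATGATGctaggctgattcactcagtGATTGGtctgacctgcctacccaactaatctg
*H2-DMb2*, chr17:34145109-34145218, + strand: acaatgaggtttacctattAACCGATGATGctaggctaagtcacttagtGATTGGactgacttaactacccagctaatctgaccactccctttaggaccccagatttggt
*H2-Ob*, chr17:34238765-34238874, + strand: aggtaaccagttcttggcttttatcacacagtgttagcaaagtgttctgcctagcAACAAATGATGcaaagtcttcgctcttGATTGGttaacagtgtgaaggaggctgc
*H2-Aa*, chr17:34287854-34287963, - strand: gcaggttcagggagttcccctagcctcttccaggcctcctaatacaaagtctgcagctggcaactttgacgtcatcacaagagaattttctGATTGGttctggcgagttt
*H2-Oa*, chr17:34092239-34092348, + strand: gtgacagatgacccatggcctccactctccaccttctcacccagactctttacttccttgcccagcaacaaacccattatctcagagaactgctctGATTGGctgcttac

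Both strands of all 32851 promoters in the table were searched. GATTGG occurred in 16.1% of them and AACNNATGATG in 0.137%, and the motifs do not overlap each other. Both stood on 1 strand with 10 to 30 bases between them in 4 promoters, which is 0.0122%. These were *H2-Eb1*, *H2-DMb1*, *H2-DMb2* and *H2-Ob*, with gaps of 18, 19, 19 and 16 bases. Since the longer motif was read off these members, this count is a description only. *H2-Aa* and *H2-Oa* held GATTGG 49 and 44 bases before the start without the longer motif, and of the 2 entries of *H2-DMa* 1 held GATTGG 199 bases before its start and the other neither motif. A match is no proof of binding, and no match says only that these letters were not in the window.

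Class II transcripts were concentrated in 4 cell classes. Summed over the 10 genes, they made up 5.09% of all UMIs in 457 conventional dendritic-like cells, 3.52% in 72 mature dendritic-like cells, 2.999% in 319 B-like cells and 2.92% in 8283 macrophage-like cells. The 95% Poisson intervals, which cover counting error only, were 5.08% to 5.11%, 3.48% to 3.56%, 2.97% to 3.03% and 2.91% to 2.92%. In every other class the sum was 0.123% or less, with T/NK-like cells highest, fibroblast-like cells at 0.0440% and endothelial-like cells at 0.0400%. These pooled values hide wide spreads between libraries, which are given for each class below.

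**Figure D1:**
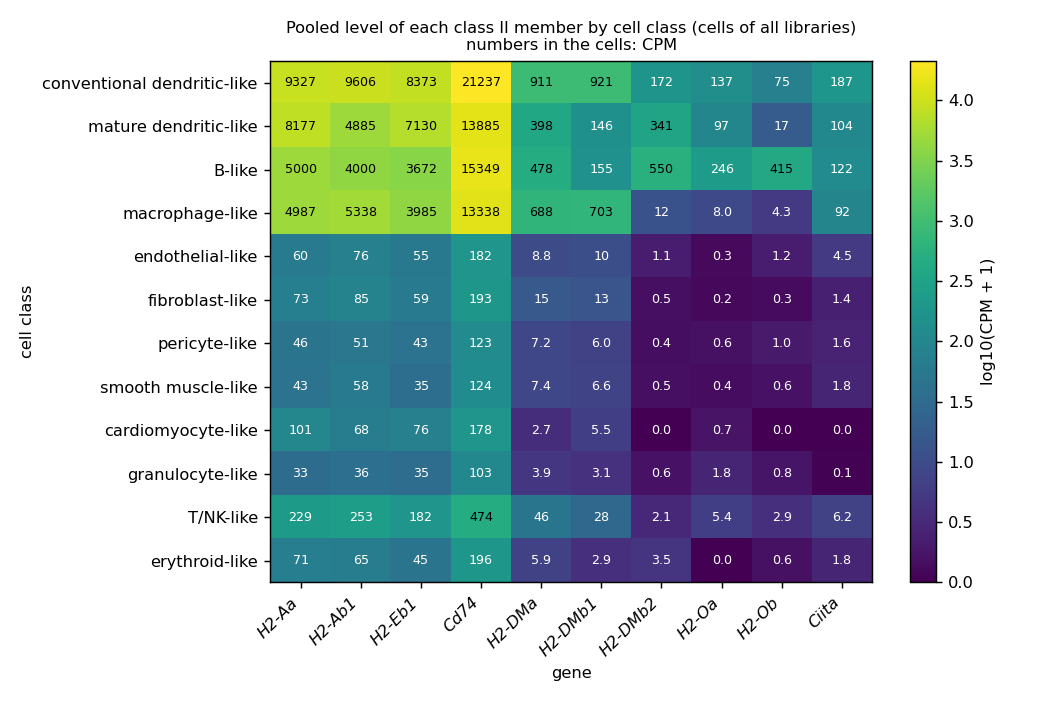
Pooled level in CPM of each of the 10 genes (columns) in 12 cell classes (rows), colour on a log10(CPM + 1) scale and the CPM printed in each field. The 4 upper classes stand apart for *H2-Aa*, *H2-Ab1*, *H2-Eb1* and *Cd74*, while *H2-DMb2*, *H2-Oa* and *H2-Ob* fall to 11.5, 7.97 and 4.34 CPM in macrophage-like cells.

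Levels below are CPM, a gene's UMIs scaled to a fixed total of UMIs, and are not divided by transcript length, so the order of levels between genes carries no meaning of its own. Among the chains, *H2-Aa* (the H2-A α chain) was at 9327 CPM in conventional dendritic-like, 8177 in mature dendritic-like, 5000 in B-like and 4987 in macrophage-like cells. The library ranges of B-like cells (4717 to 6135 CPM) and macrophage-like cells (206 to 6616 CPM) overlapped, so these neighbours did not differ beyond their spread. *H2-Ab1*, the β chain of H2-A, was at 9606, 4885, 4000 and 5338 CPM in the same 4 classes, and *H2-Eb1*, the β chain of H2-E, at 8373, 7130, 3672 and 3985 CPM. The ratio of mature to conventional dendritic-like cells, with 10 CPM added to both levels, was 0.509 for *H2-Ab1*, against 0.877 for *H2-Aa* and 0.852 for *H2-Eb1*. In the other 8 classes *H2-Aa* lay between 32.6 CPM in granulocyte-like and 229 CPM in T/NK-like cells.

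*Cd74*, the invariant chain, gave 1909746 UMIs in the cells used. Its level was 21237 CPM in conventional dendritic-like, 13885 in mature dendritic-like, 15349 in B-like and 13338 in macrophage-like cells. In the remaining classes it ran from 103 CPM in granulocyte-like to 474 CPM in T/NK-like cells.

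The H2-DM genes did not follow 1 order over the classes. *H2-DMa*, the α chain of the peptide exchanger, was at 911 CPM in conventional dendritic-like, 688 in macrophage-like, 478 in B-like and 398 in mature dendritic-like cells. *H2-DMb1*, one of its β chains, was at 921 and 703 CPM in conventional dendritic-like and macrophage-like cells but at 155 and 146 CPM in B-like and mature dendritic-like cells. Macrophage-like libraries ranged from 70.5 to 878 CPM for *H2-DMa* and from 41.2 to 911 CPM for *H2-DMb1*. The lowest *H2-DMb1* value, in library 2, lay below the B-like libraries (172 to 207 CPM). *H2-DMb2*, the other β chain gene, was highest in B-like cells, with 550 CPM in B-like, 341 in mature dendritic-like, 172 in conventional dendritic-like and 11.5 CPM in macrophage-like cells.

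Counted together, *H2-DMb2* gave 78.01% of the UMIs of the β chain pair in B-like cells (exact binomial 95% interval 75.3% to 80.6%) and 70.0% in mature dendritic-like cells (65.2% to 74.5%). It gave 15.7% in conventional dendritic-like cells (14.9% to 16.6%) and 1.61% in macrophage-like cells (1.53% to 1.70%). The same order was seen in libraries 3 and 4. In library 4 the shares were 75.6%, 71.5%, 17.04% and 1.48%, and in library 3 they were 74.4% in B-like, 13.8% in conventional dendritic-like and 2.96% in macrophage-like cells, with too few mature dendritic-like cells for a value. In macrophage-like cells of libraries 1 and 2 they were 1.597% and 10.4% (8.19% to 12.9%), the latter from 70 UMIs of *H2-DMb2*. In the last 1000 bases of their annotated transcripts, 32.8% of the 60-base words of *H2-DMb1* also occurred in *H2-DMb2* and 27.0% the other way round, so reads in the shared stretches could have been dropped or assigned to either gene and the split is uncertain to that extent.

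**Figure D2:**
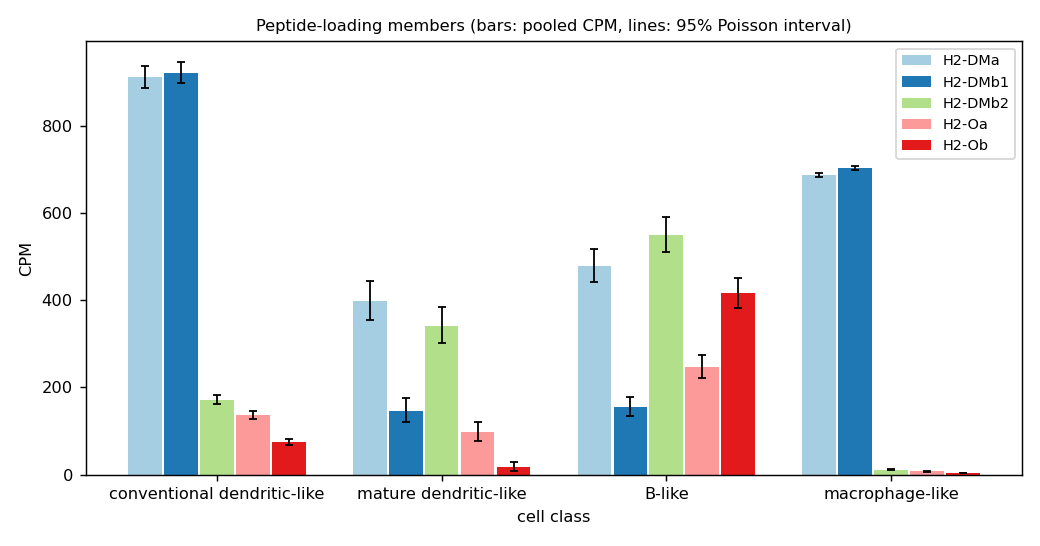
Pooled CPM (bars, axis from 0) of the 5 peptide-loading genes in the 4 classes that carry class II, with 95% Poisson intervals as lines. *H2-DMb1* is at 921 and 703 CPM in conventional dendritic-like and macrophage-like cells, *H2-DMb2* is at 550 CPM in B-like and 11.5 CPM in macrophage-like cells, and both H2-O genes are highest in B-like cells.

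The H2-O genes encode the chains of the protein that restrains H2-DM, and B-like cells had the highest level of both. *H2-Oa* was at 246 CPM in B-like, 137 in conventional dendritic-like, 97.3 in mature dendritic-like and 7.97 CPM in macrophage-like cells. *H2-Ob* was at 415, 74.7, 17.5 and 4.34 CPM in the same order. The library ranges of neighbours in these orders did not overlap for either gene, with only library 4 giving a value for mature dendritic-like cells. Per 100 UMIs of the 3 H2-DM genes there were 55.9 UMIs of the H2-O pair in B-like cells (Poisson 95% interval 52.3 to 59.7), 12.98 in mature dendritic-like (10.5 to 15.9), 10.6 in conventional dendritic-like (9.99 to 11.2) and 0.878 in macrophage-like cells (0.834 to 0.923). Within library 4 the values were 52.3, 11.6, 9.20 and 0.851.

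Set side by side as pooled levels with 10 CPM added, B-like cells were at least 2-fold above macrophage-like cells for *H2-DMb2*, *H2-Oa* and *H2-Ob*. They were at least 2-fold below for *H2-DMb1*. That is 3 of 10 members higher, against 6.98% of the 15410 genes with at least 100 UMIs, and 1 lower, against 7.71%. For *H2-Aa* the pooled ratio was 1.00 and for *Cd74* 1.15, but library 4 and the other libraries went opposite ways. In library 4 B-like and macrophage-like cells had *H2-Aa* at 4717 and 6030 CPM and *Cd74* at 14329 and 16201 CPM. In libraries 1 to 3 pooled they had *H2-Aa* at 5206 and 2405 CPM and *Cd74* at 16092 and 6250 CPM. The macrophage-like pool holds library 2, where B-like cells had no value. Conventional dendritic-like cells were at least 2-fold above macrophage-like cells for 4 of 10 members (background 1.90%) and below for 0 of 10 (background 2.03%). The 4 were *H2-Eb1*, *H2-DMb2*, *H2-Oa* and *H2-Ob*. Conventional dendritic-like cells had no value in library 2 either. Within library 4 *H2-Eb1* was at 7946 and 4686 CPM in these classes, less than 2-fold apart. There *H2-DMb2* was at 200 and 13.7, *H2-Oa* at 147 and 10.4 and *H2-Ob* at 58.0 and 4.98 CPM. Mature dendritic-like cells were at least 2-fold below conventional dendritic-like cells for *H2-DMa*, *H2-DMb1* and *H2-Ob*, 3 of 10 members against a background of 6.13%, and above for 0 (background 4.22%).

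*Ciita*, the coactivator that switches on class II, gave 14052 UMIs in all. Its level was 187 CPM in conventional dendritic-like (95% interval 176 to 198), 122 in B-like (104 to 142), 104 in mature dendritic-like (82.5 to 128) and 91.7 CPM in macrophage-like cells. The next classes were T/NK-like at 6.15, endothelial-like at 4.46 and smooth muscle-like at 1.85 CPM, and no *Ciita* UMI was found in cardiomyocyte-like cells, which allows up to 2.05 CPM at a limit of 3 UMIs. Over the 33 pools of 1 class in 1 library with at least 50 cells, log2(CPM + 10) of *Ciita* correlated with that of the other members with Pearson's r from 0.75 for *H2-Ob* to 0.95 for *H2-DMa*. The pools share libraries and depth, so this is a description without a test.

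Among the partners of CIITA, the 7 RFX, NF-Y and CREB genes had r with the class II sum from -0.33 for *Nfyb* to 0.51 for *Rfx5* over these pools. *Rfx5* was at 6.96 CPM in endothelial-like, 7.81 in macrophage-like, 11.3 in conventional dendritic-like, 18.3 in B-like and 22.5 CPM in mature dendritic-like cells. *Rfxap* was at 43.5 CPM in endothelial-like and 31.6 CPM in macrophage-like cells.

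By the same measure, the genes whose level was most like the class II sum, members left out, were *Ly86* (r = 0.93), *Ctss* (0.92), *Fgd2*, *Pld4*, *Cd86* (each 0.91), *Aif1* (0.91), *Ms4a4c* (0.90), *Cd83* (0.89), *Rnase6* (0.88) and *Hpse* (0.88). *Ctss* is cathepsin S and *Cd83* a surface protein that slows the removal of class II. *March1*, the ligase that marks class II for removal, had r = 0.86, whereas cathepsin L, *Ctsl*, had r = -0.19. The members themselves had r from 0.66 for *H2-Ob* to 1.00 for *Cd74*, which is part of the sum.

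Between the libraries with a value, conventional dendritic-like and B-like cells varied little beside macrophage-like cells. The highest share was 1.17, 1.28 and 21.0 times the lowest in these classes. Mature dendritic-like cells had a value in library 4 only. The sum was 5.09%, 5.75% and 4.90% in conventional dendritic-like cells of libraries 1, 3 and 4, and 3.65% and 2.85% in B-like cells of libraries 3 and 4. In macrophage-like cells it was 3.59% in library 1, 0.171% in library 2, 1.68% in library 3 and 3.55% in library 4. Library 2 was thus 21.0 times below library 1. Without library 2, the macrophage-like values ran from 1.68% in library 3 to 3.59% in library 1. The conventional dendritic-like, mature dendritic-like and B-like classes had no value in library 2. Whether they had such a gap could therefore not be seen.

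**Figure D3:**
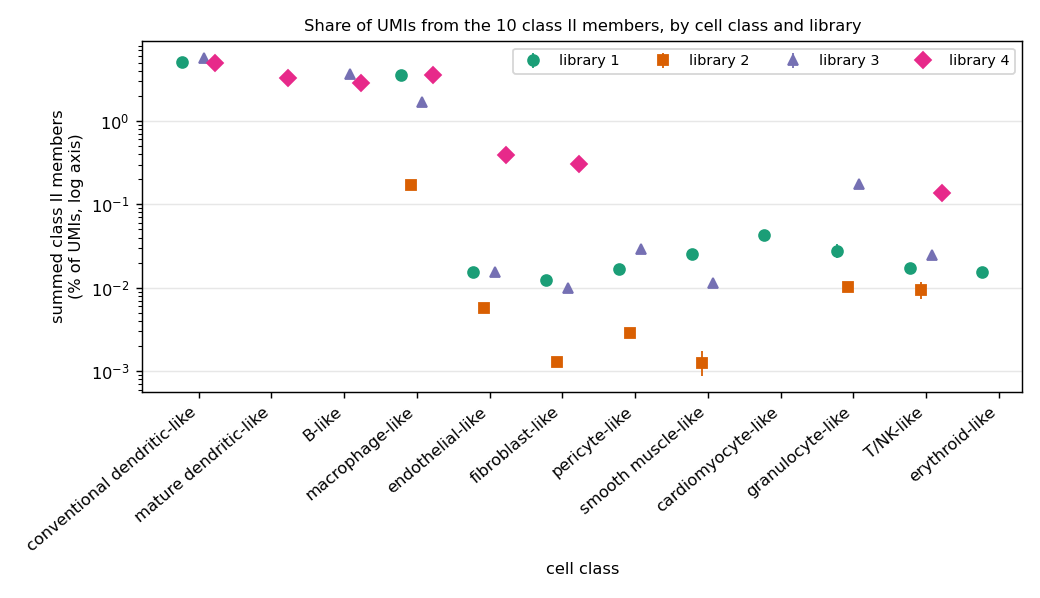
Summed class II members as a percentage of UMIs (log axis) in each class and library with at least 50 cells, with 95% Poisson intervals as lines, mostly shorter than the symbols. Macrophage-like cells of library 2 lie at 0.171%, and endothelial-like and fibroblast-like cells of library 4 at 0.389% and 0.306%, far above the same classes in libraries 1 to 3.

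In macrophage-like cells the 4 libraries had *H2-Aa* at 6616, 206, 3021 and 6030 CPM, *Cd74* at 16295, 966, 7753 and 16201 CPM and *Ciita* at 66.8, 1.16, 34.0 and 118.5 CPM. Library 2 was lowest for each. Against libraries 1, 3 and 4 pooled, 7 of 10 members were at least 2-fold lower in library 2 (background 3.61%) and 0 higher (1.95%), with log2 folds from -3.28 for *H2-DMa* to -4.71 for *H2-Aa*. The others, *H2-DMb2*, *H2-Oa* and *H2-Ob*, were at most 12.4 CPM on either side and stayed under 2-fold with 10 CPM added. They too were lower in library 2, at 4.78, 0.205 and 0.614 CPM against 12.4, 9.01 and 4.84 CPM. The same cells were lower for 10 of 10 class I and peptide loading genes and for 13 of 14 interferon gamma targets. Of the RFX, NF-Y and CREB group 0 of 7 genes were lower, which lies near the background of 3.61%.

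The macrophage-like cells and the dendritic clusters were clustered again to see where class II lay. Subcluster 3, led by *Fcrls* and *Cx3cr1*, had 3.83% in its 326 cells of library 1 and 1.75% in its 940 cells of library 3. Subclusters 1, 2 and 7 came from library 4 but for 3 cells and had 3.92%, 3.06% and 3.31%. Subcluster 2 was led by *Ly6c2* and *Plac8*, genes of infiltrating monocytes, and subcluster 7 by *Ccl8* and complement genes. The 728 cells of library 2 in subcluster 4, led by *Cxcl3* and *S100a8*, had 0.0931%, and its 245 cells of subcluster 10, led by the resident macrophage genes *Cd163* and *Lyve1*, had 0.496%. These are the subclusters with at least 50 cells of library 2, and both were low. Subclusters 8 and 9, led by endothelial and fibroblast genes such as *Egfl7* and *Dcn*, had 1.57% and 1.33% and were left unnamed.

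To compare cells at 1 depth, each cell was thinned to 1000 UMIs. In library 4, 84.2% of macrophage-like cells then had at least 20 class II UMIs and 0.140% had 0. In library 3, 32.6% had 0, 23.1% had 1 to 4, 13.9% had 5 to 19 and 30.5% had at least 20, so most of its cells lay at either end. Library 1 had 57.6% of cells with at least 20 and 16.4% with 0, and library 2 had 2.38% and 69.9%. In conventional dendritic-like cells 15.9%, 7.0% and 0.508% of cells were at 0 in libraries 1, 3 and 4. In B-like cells no cell was at 0, and the lowest had 6 class II UMIs in library 3 and 11 in library 4.

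**Figure D4:**
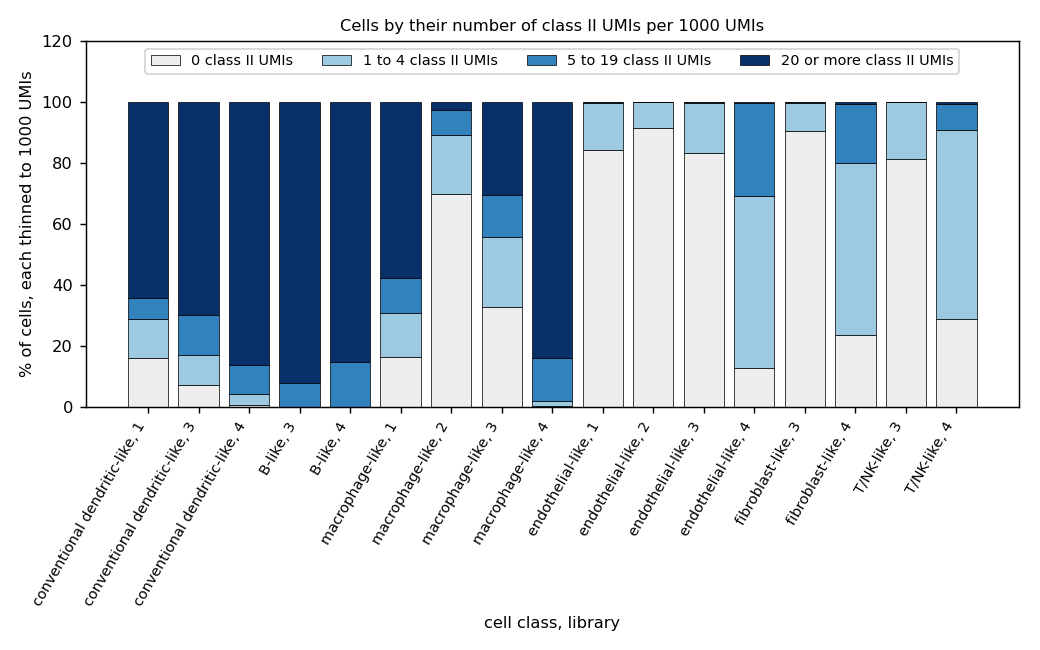
Percentage of cells (each thinned to 1000 UMIs) with 0, 1 to 4, 5 to 19 and at least 20 class II UMIs, for selected classes, with the library after each name. Macrophage-like cells of library 3 split between 32.6% of cells at 0 and 30.5% at 20 or more, and in endothelial-like cells of library 4 87.4% have at least 1 class II UMI against 8.44% to 16.7% in libraries 1 to 3.

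Within subcluster 3 of library 3, the 298 cells with at least 20 thinned class II UMIs and the 512 cells with at most 4 had like depth (medians of 12356 and 13261.5 UMIs) and like *C1qa* (5722 and 6465 CPM), a complement gene of tissue macrophages. *Ciita* was at 112 and 1.78 CPM. *Ccr2*, the receptor of recruited monocytes, was at 508 CPM in the cells rich in class II and 126 CPM in the others. The genes *F13a1* (86.1 and 349 CPM), *Folr2* (42.5 and 153 CPM) and *Gas6* (120 and 347 CPM), which mark resident macrophages, were lower in the cells rich in class II, but *Cx3cr1* (445 and 401 CPM) and *Timd4* (2.18 and 1.27 CPM), of the same marker list, were not. In library 1 the same split gave *Ccr2* at 480 and 90.5 CPM and *F13a1* at 165 and 372 CPM, but *Mrc1* at 460 and 328 CPM, where library 3 had 376 and 606 CPM. There *Cx3cr1* was at 296 and 177 CPM and *Timd4* at 7.73 and 2.78 CPM, so the resident markers did not move as 1 group. The cells were divided by their class II UMIs, *Ciita* among them, so these values are a description.

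Endothelial-like cells, which line the vessels and meet recipient blood first, had class II at 0.0156%, 0.00579% and 0.0155% of UMIs in libraries 1 to 3 and at 0.389% in library 4 (95% interval 0.385% to 0.394%). The first 3 values lie at or below those of T/NK-like cells of the same libraries (0.0173%, 0.00931% and 0.0246%). Endothelial-like cells with a *Ciita* UMI in libraries 1 and 3 had 0.0791% and 0.104% of UMIs from the other members, against 0.0147% and 0.0141% in those without, and how much of these low values is free RNA was not tested. In library 4 *Cd74* was at 1886 CPM, *H2-Ab1* at 735, *H2-Aa* at 519 and *H2-Eb1* at 496 CPM, against 24.5 to 61.4, 10.5 to 33.9, 10.4 to 32.3 and 8.08 to 28.1 CPM in the other libraries. No library came near library 4.

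The loading genes were higher in these cells as well. *H2-DMa* was at 84.9 CPM in library 4 and 1.69 to 3.41 CPM elsewhere, *H2-DMb1* at 106 and 1.52 to 2.80 CPM, and *H2-DMb2* at 11.2 and 0.197 to 0.493 CPM. *H2-Oa* and *H2-Ob* were at 0.773 and 1.29 CPM in library 4, from 6 and 10 UMIs, and at up to 0.352 and 2.01 CPM elsewhere. *Ciita* was at 50.4 CPM (95% interval 45.5 to 55.6) in library 4 and at 1.44, 0.310 and 0.756 CPM in libraries 1 to 3. Against libraries 1 to 3 pooled, 8 of 10 members were at least 2-fold higher (background 2.19%) and 0 lower (2.84%), with log2 folds from 1.04 for *H2-DMb2* to 5.09 for *Cd74*. Their median over the 10 was 3.07, against -0.07 over all genes tested.

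**Figure D5:**
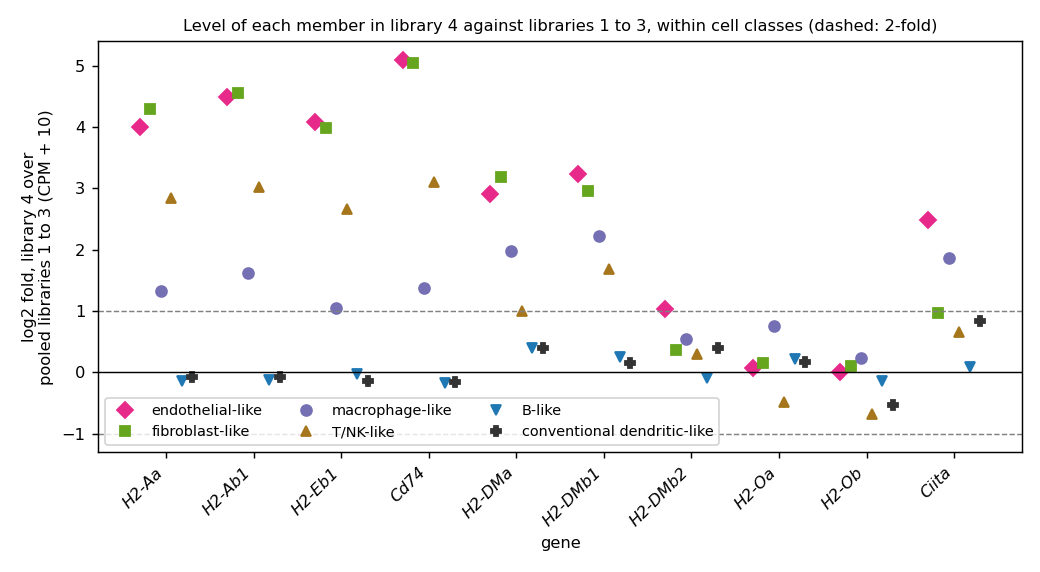
Log2 fold of each member in library 4 over libraries 1 to 3 pooled (10 CPM added to both), in 6 cell classes, dashed lines at 2-fold. Endothelial-like and fibroblast-like cells reach 5.09 and 5.04 for *Cd74*, while B-like and conventional dendritic-like cells stay within 2-fold for all 10 genes.

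Most endothelial-like cells of library 4 lay in 1 subcluster. When endothelial-like cells were clustered again, 616 of the 630 cells of library 4 fell into a subcluster led by *Ubd* and *Cxcl9*, which had 0.368% and held 619 cells. The 616 cells themselves had 0.369%, a little below the 0.389% of all 630. At clustering resolution 0.4 fewer than 50 cells of library 4 were named endothelial-like, so no value was had. The other 10 subclusters had 0.00159% to 0.129%. The highest of them were 164 lymphatic cells, led by *Ccl21a* and *Mmrn1*, at 0.0233% in library 1 and 0.0474% in library 3, and their pooled 0.129% rests on 10 cells of library 4, which had 0.855%.

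In library 4 203 of the 630 endothelial-like cells had a *Ciita* UMI, which is 32.2% (exact binomial 95% interval 28.6% to 36.0%), against 8.10% of T/NK-like cells (6.72% to 9.65%). Their median depths were 9219.5 and 11396.5 UMIs, and at 1000 UMIs per cell the shares were 4.29% and 0.573%. The endothelial-like cells with a *Ciita* UMI had 0.546% of UMIs from the other 9 members and those without had 0.244%, with median depths of 13508 and 7982 UMIs. Only 24, 11 and 24 cells of libraries 1 to 3 had a *Ciita* UMI.

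Of the marker lists of other class II cells, the macrophage sum was higher in library 4 and the dendritic and B sums were lower. All 9 macrophage markers were detected in endothelial-like cells of every library, and their sum was 380 CPM in library 4 and 134 to 186 CPM in the others. The 9 dendritic markers summed to 203 CPM against 261 to 303 CPM (*Cd209a* at 0 in library 4). The 8 B markers summed to 125 CPM against 198 to 336 CPM. In library 4 *Ms4a1* and *Bank1* were at 0 and *Pax5* at 0.129 CPM, so other genes of the list made up the B sum. How much of the dendritic and B sums is RNA of those cells was not tested. Per UMI of the macrophage markers there were 10.2 class II UMIs in endothelial-like cells of library 4. In the same library the ratio was 2.94 in macrophage-like cells, 2.89 in T/NK-like cells, 2.77 in an unnamed cluster of 758 shallow cells with granulocyte genes and 3.40 in 166 shallow cells with cardiomyocyte genes, whose class II made up 0.442% and 1.39% of UMIs. *Ciita* was 1.30% of the class II UMIs of endothelial-like cells and 0.334%, 0.503%, 0.345% and 0.327% in those 4 groups. The part of free or carried-over macrophage RNA in the endothelial-like values was not tested.

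Fibroblast-like cells gave a like picture with less *Ciita*. Their class II was 0.0124%, 0.00129% and 0.0098% in libraries 1 to 3 and 0.306% in library 4 (95% interval 0.303% to 0.309%), where 316 of the 329 cells fell into a subcluster led by *Cxcl9* and *Ccl5* with 0.311%. With doublets kept the value for library 4 was 0.499%, and with 20 principal components too few cells of library 4 were named fibroblast-like for a value. In library 4 *Cd74* was at 1375 CPM, *H2-Ab1* at 598, *H2-Aa* at 497, *H2-Eb1* at 381, *H2-DMa* at 106 and *H2-DMb1* at 88.2 CPM. These 6 of 10 members were at least 2-fold above libraries 1 to 3 (background 2.66%), and 0 were lower (2.98%). *Ciita* was at 10.0 CPM, with libraries 1 to 3 at 0.387, 0 (which allows up to 0.133) and 0.314 CPM and a log2 fold of 0.97.

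*Ciita*, at 50.4 against 10.0 CPM, was the 1 of 10 members at least 2-fold higher in endothelial-like than in fibroblast-like cells of library 4 (background 6.24%). Of the 10, 0 were lower (5.86%), and both counts lie near their backgrounds. *H2-DMb2*, at 11.2 against 3.10 CPM, stayed under 2-fold with 10 CPM added. The 9 members other than *Ciita* had log2 folds from -0.28 to 0.70. The fibroblast-like cells were deeper, with a median of 37508 UMIs, and 24.6% had a *Ciita* UMI (20.1% to 29.6%). The 81 cells with one had 0.594% of UMIs from the other members and the 248 without had 0.195%, at medians of 39062 and 37211 UMIs. The macrophage markers summed to 568 CPM in these cells and 78.5 to 213 CPM in libraries 1 to 3, the ratio of class II to them was 5.39, and *Ciita* was 0.328% of class II UMIs. The part of macrophage RNA in these values was not tested.

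Other stromal classes had too few cells in library 4 for a value. Pericyte-like cells had 0.0166%, 0.00290% and 0.0291% in libraries 1 to 3 and smooth muscle-like cells 0.0256%, 0.00126% and 0.0113%. Library 2 was lowest in every class with a value there, as in macrophage-like cells. Granulocyte-like cells had 0.0276%, 0.0102% and 0.174% in libraries 1 to 3. The last value leans on few cells, since at 1000 UMIs 71.6% of them had no class II UMI, none had 5 to 19, and only 0.389% (1 cell, with 93) had at least 20. Without weighting by depth the mean over these cells was 0.0724%. The share was 0.0434% in cardiomyocyte-like and 0.0154% in erythroid-like cells of library 1.

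T/NK-like cells had 0.123% over all libraries, 0.337% with doublets kept, and 0.137% in library 4, where 5 of 10 members (*H2-Aa*, *H2-Ab1*, *H2-Eb1*, *H2-DMb1* and *Cd74*) were at least 2-fold above libraries 1 to 3 (background 2.60%). Their macrophage markers were at 472 CPM in library 4 and 103 to 271 CPM in the others, and the part of macrophage RNA was not tested.

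Macrophage-like cells of library 4 were at least 2-fold above libraries 1 to 3 pooled for 7 of 10 members (background 2.58%), with log2 folds from 1.05 for *H2-Eb1* to 2.22 for *H2-DMb1*. Without library 2 only 3 of 10 were, so this count rests on that library.

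In B-like and conventional dendritic-like cells 0 of 10 members differed by 2-fold between library 4 and libraries 1 to 3. Of all genes tested 1.77% and 2.41% were higher and 3.52% and 2.05% lower, so counts of 0 lie near the background. Of the interferon gamma targets, 12 of 14 were higher in B-like and 13 of 14 in conventional dendritic-like cells of library 4. In B-like cells *H2-Aa* was at 4717 CPM in library 4 and 6135 CPM in library 3, and *Ciita* was at 127 CPM in both. In conventional dendritic-like cells *Ciita* was at 134, 149 and 251 CPM in libraries 1, 3 and 4, a log2 fold of 0.84.

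Around the members, the wider pathway in endothelial-like cells of library 4 was uneven. All 10 class I and peptide loading genes were at least 2-fold above libraries 1 to 3 (background 2.19%). Among them was *Nlrc5*, the class I counterpart of *Ciita*, at 72.7 CPM against 3.21 to 17.4 CPM. The same was true of 13 of 14 interferon gamma targets, with a median log2 fold of 3.30. Among the regulators of *Ciita*, those at least 2-fold higher included *Irf8* (412 against 68.7 to 133 CPM) and *Spi1* (25.9 against 2.10 to 14.1 CPM), the last a myeloid factor. *Irf1*, which binds the interferon-responsive promoter of *Ciita*, was at 746 CPM in library 4 and at 1116, 209 and 665 CPM in libraries 1 to 3. In library 1 *Ciita* was at 1.44 CPM, and the relation of *Irf1* to *Ciita* was not tested.

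Of the 7 protease genes and their relatives found, cathepsin S alone passed the 2-fold line, with *Ctss* at 116.5 CPM in library 4 and 8.51 to 24.7 CPM in the others. *Ifi30*, a thiol reductase of the same list, was not among the genes of the matrix. Of 5 costimulation genes *Cd40* (69.0 against 17.2 to 24.5 CPM) and *Cd274*, which encodes PD-L1 (741 against 22.7 to 153 CPM), passed. *Cd80* had no UMI (which allows up to 0.387 CPM) and *Cd86* was at 7.09 CPM in endothelial-like cells of library 4, whereas *Cd86* was at 216.5 CPM in its macrophage-like cells. None of the 7 RFX, NF-Y and CREB genes, the 3 turnover genes (*March1*, *March8* and *Cd83*) and the 2 receptor genes (*Cd4* and *Lag3*) passed. The background for all these counts is 2.19%, and counts of 0 lie near it.

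Fibroblast-like cells of library 4 had 10 of 10 class I and peptide loading genes and 13 of 14 interferon gamma targets at least 2-fold higher (background 2.66%). Of the RFX, NF-Y and CREB genes 0 of 7 were higher, which lies near that background. The regulators *Jak2*, *Irf8*, *Spi1* and *Socs1* were higher by that measure, and so were *Ctss*, *Cd40*, *Cd274* and the T cell gene *Lag3*, which was at 31.4 CPM there and 199 CPM in T/NK-like cells of library 4. In macrophage-like cells of library 4 the class I and target counts were again 10 and 13 (background 2.58%). There 3 of 7 proteases and relatives (*Ctsl*, *Ctsd* and *Lgmn*) were at least 2-fold lower (background 2.91%), *March1* was higher and *Cd83* lower. T/NK-like cells of library 4, by contrast, had 0 of 10 class I genes and 3 of 14 targets at least 2-fold higher (background 2.60%).

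Between mature and conventional dendritic-like cells, 1 of 3 turnover genes was at least 2-fold higher in the mature cells and 1 lower, against backgrounds of 4.22% and 6.13%. *March1* was at 3.74 CPM in mature and 57.9 CPM in conventional dendritic-like cells, and *Cd83* at 1020 and 405 CPM. Of 7 proteases and relatives 2 were lower, *Ctsl* (34.9 and 194 CPM) and *Ctsb* (316 and 642 CPM), and 0 were higher. Of 5 costimulation genes 3 were higher, among them *Cd80* at 46.2 and 11.8 CPM. Since 56 of the 72 mature dendritic-like cells came from library 4, values within 1 library bear on them most. Within library 4 *March1* was at 5.06 and 73.9 CPM and *H2-Ab1* at 4530 and 9327 CPM.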

How the data were processed

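Single cells of 4 grafts were profiled with a droplet kit that reads the 3′ end of transcripts. The authors aligned reads to mm10 in Cell Ranger and deposited 1 merged matrix of UMI counts (53824 barcodes). Being 3′ counts, levels were not divided by length. The reference is C57BL/6J, and how well Balb/C alleles of these polymorphic genes were counted was not tested. Cells with more than 200 genes and under 20% mitochondrial counts were kept, and the 13 mitochondrial genes were then removed. A preset 5% of cells per library, those with most simulated doublets among their neighbours, were left out as doublets. Values were log-normalised, and 2000 variable genes, without the members, other H2 genes, class I and interferon gamma target lists, gave 10 principal components and Leiden clusters (leidenalg, resolution 0.8; subclusters 0.5). A cluster was named from at least 3 markers found in 10% of cells at 2-fold. That a shallow cluster needs 3 markers among its 10 leading genes was chosen after seeing the data. Dendritic-like classes are 2 myeloid subclusters.

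Counts were pooled per class and library (at least 50 cells) as CPM, with Poisson bounds for levels and Clopper-Pearson bounds for shares of cells. Folds used CPM + 10 over 15410 genes with at least 100 UMIs. The script steps were tested on simulated data. The named genes are the members, listed pathway genes and the 10 genes most correlated with the class II sum, and genes leading a subcluster or compared within subcluster 3 were picked after their values were seen. The members and lists were chosen with earlier results of these data known. Tools were Python, SciPy and scikit-learn, and the CASAVA and Seurat steps in the submitters' processing notes were not used. Unmapped columns numbered 0. Alternatives are in the closing section. Values of 1 listed gene are not reported here.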

Additional observations from a re-analysis of the deposited data

How the results depend on the processing

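No paired analysis was possible because the barcode suffixes carry no graft or replicate number and no result comes from a test. The naming of clusters decided which stromal cells of library 4 entered a class, and 1 matrix without graft labels limits every value to a description. The cause of each shift below was not tested. Each alternative is a class II share of UMIs in percent, beside the values reported.

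In conventional dendritic-like cells the mean over cells was 4.79, and leaving out 1 library gave 4.94 to 5.25. In B-like cells keeping doublets gave 2.82, at least 500 genes 2.95 and at least 1000 UMIs 2.92, and leaving out 1 library 2.72 to 3.14. In macrophage-like cells the values were 2.86 with doublets kept, 2.83 with 20 principal components, 2.919 at resolution 1.6, 2.91 with all variable genes and 2.99 as the mean over cells. Leaving out library 4 lowered this class to 1.35, and leaving out another library gave up to 3.29.

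In endothelial-like cells at least 500 genes gave 0.0465, 20 components 0.0497, resolution 0.4 0.0131, resolution 1.6 0.0407, all variable genes 0.0438, at least 1000 UMIs 0.0514 and the mean over cells 0.0342, and leaving out 1 library 0.0120 (library 4) to 0.0576. For their library 4 cells the values were 0.372 (at least 500 genes), 0.458 (20 components), 0.410 (all variable genes), 0.427 (at least 1000 UMIs) and 0.367 (mean over cells), and at resolution 0.4 under 50 such cells were named.

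In fibroblast-like cells the values were 0.0820 with doublets kept, 0.0690 with at least 500 genes, 0.00865 with 20 components, 0.0475 at resolution 0.4, 0.0685 at resolution 1.6 and with all variable genes, 0.0671 with at least 1000 UMIs and 0.0268 as the mean over cells, and leaving out 1 library gave 0.00848 (library 4) to 0.0653. For their library 4 cells they were 0.499, 0.431, 0.313 (resolution 0.4), 0.434 (resolution 1.6), 0.437 (all variable genes), 0.428 and 0.299, with no value for 20 components. In T/NK-like cells they were 0.337 with doublets kept, 0.152, 0.116 with 20 components, 0.118 with all variable genes and with at least 1000 UMIs, and 0.157 as the mean over cells, and 0.0173 (without library 4) to 0.129 on leaving out 1 library.

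At subclustering resolution 0.3 the dendritic-like cells fell into 1 subcluster with 5.46, while the *Ubd*-led subcluster held its 619 cells. With 1 CPM in place of 10, 8 members were higher and 2 lower in T/NK-like cells of library 4, and 2 were higher in endothelial-like than fibroblast-like cells of library 4. In macrophage-like cells of library 4, 3 (without library 2) to 7 members were higher on leaving out 1 of libraries 1 to 3. Leaving out 1 of libraries 1 to 3 left the endothelial-like and fibroblast-like counts at 8 and 6 members, and 1 CPM gave 8 and 9. Thinning to 1000 UMIs lowered all 50 shares of cells with a UMI. A looser naming rule for shallow clusters, with 1 marker enough, named a cluster of 2005 cells as erythroid and 1 of 1543 cells as dendritic. Neither name is that of 1 of the 6 classes above, so their shares could not change with it.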
